A study of Bos indicus x Bos taurus with 17 samples.

Results

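The 10 genes described here encode the enzymes that make glucose from smaller molecules and that store and release it as glycogen: G6PC, PCK1, PCK2, FBP1, FBP2, PC, GYS1, GYS2, PYGL and PYGM. They were chosen by symbol, and all 10 were among the 21048 genes counted in both fetal liver and fetal skeletal muscle. The RNA-seq counts came from 6 Bos indicus x Bos taurus fetuses at about day 105, healthy by their labels, with liver and muscle from each. In 4 fetuses (ART-Normal 1 to 4) conception was by assisted reproduction, in vitro production in the study's methods. In 2 (Control-AI 2 and 4) it was by artificial insemination. The study defines its ART-Normal group by a body weight similar to that of the controls. The paper does not list ART-Normal 4, which was taken from the labels, and gives no weight for it. Each tissue sample was a whole-tissue extract from 1 fetus, so a lower level could mean fewer cells of a type or less RNA per cell, and these cannot be told apart.

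Gluconeogenesis runs from pyruvate to glucose. Pyruvate carboxylase (PC) makes oxaloacetate, phosphoenolpyruvate carboxykinase (PCK1 in the cytosol, PCK2 in mitochondria) makes phosphoenolpyruvate, fructose-1,6-bisphosphatase (FBP1 in liver, FBP2 in muscle) acts further up, and the catalytic subunit of glucose-6-phosphatase (G6PC) frees glucose at the end. Glycogen is built by a synthase, GYS2 in liver and GYS1 in muscle and most other tissues, and cut by a phosphorylase, PYGL in liver and PYGM in muscle. Adult ruminants depend on hepatic gluconeogenesis because little dietary glucose is absorbed, whereas the fetus receives most of its glucose across the placenta and its liver stores glycogen.

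Total counts were 18454088 to 43339598 per liver library and 12433300 to 23578362 per muscle library. Levels are given as CPM, the counts relative to library size, after TMM scaling over all 12 libraries. All 7 hepatocyte markers were counted in liver, with a summed level of 27582 to 332288 CPM against 24.0 to 358 in muscle. All 7 skeletal muscle markers summed to 13789 to 22802 CPM in muscle and to 1.89 to 25.8 in liver. Control-AI 2 stood apart in both tissues. Its liver gave the highest hepatocyte sum, 332288 CPM with at most 50262 in the other livers, and the highest muscle marker sum, 25.8 CPM with at most 5.22 in the others. Of the hepatocyte markers, ALB, AFP, SERPINA1 and AHSG were above all other livers there, AHSG at 149373 CPM. APOA1 (1583 CPM), APOB (3658) and TTR (2236) were within the range of the other livers. The Control-AI 2 muscle gave the highest hepatocyte sum, 358 CPM with at most 61.0 in the others. Its liver TMM factor was 0.748, the lowest of all 12. Results that rest on this fetus are given with and without it.

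The question of the tissue comparison was which form of each enzyme was used in which tissue. Of the 10 genes, 7 passed the filter of at least 5 CPM in every library of a group (PCK2, FBP1, PC, GYS1, GYS2, PYGL and PYGM). In the edgeR quasi-likelihood fit over all 12 libraries, 5 of these 7 were higher in liver (PCK2, FBP1, PC, GYS2, PYGL) and 2 higher in muscle (GYS1, PYGM) at an adjusted p of 0.05 or lower. Across the 12923 genes tested, 81.3% passed the same threshold, 40.6% higher in liver and 40.7% higher in muscle, so passing it did not set the enzymes apart. The median log2 fold change of liver over muscle was 3.17 for the 7 enzymes and 0.006 for all genes, and the median absolute value was 5.66 against 0.91. All 7 had liver and muscle libraries that did not overlap, 5 with liver above and 2 with muscle above, which held for 32% and 32.6% of all genes tested, 64.6% together. PCK2, FBP1 and GYS2 passed the filter only through liver and PYGM only through muscle, so the filter itself favoured a tissue difference in them. Several of the enzymes were also known beforehand as liver or muscle forms. The medians and the lack of overlap are therefore descriptions of chosen genes. G6PC, PCK1 and FBP2 were below the filter and were taken from the fit without a filter on low values, in which 69.8% of 18749 genes passed.

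**Figure D1:**
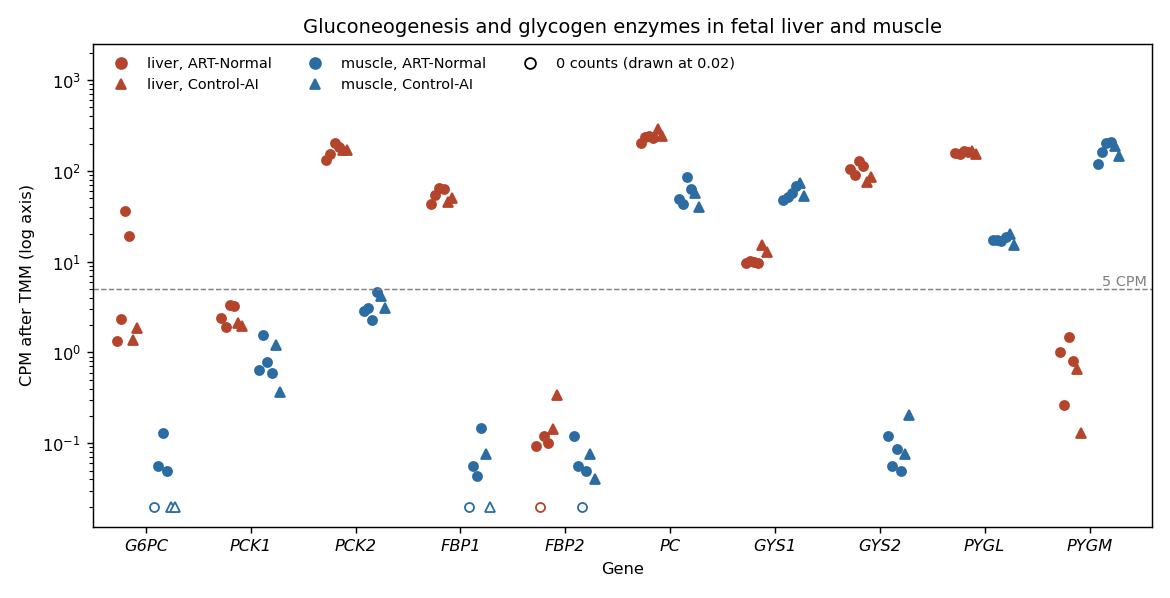
Level of each of the 10 enzymes in each library, in CPM after TMM scaling on a log axis, with liver in red, muscle in blue, ART-Normal as circles and Control-AI as triangles. Open symbols stand for 0 counts, and the dashed line marks the 5 CPM of the filter. GYS2, FBP1 and PCK2 lie far above it in liver and below it in muscle, PYGM shows the opposite, and G6PC spreads from 1.34 to 35.7 CPM in liver.

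PC, the enzyme of the first step, had the smallest fitted tissue difference of the 7 enzymes tested. The gene (ID 338471) lies on ARS-UCD1.2 at chr29:44862567-44965332 on the minus strand. In liver it was at 204, 238, 244 and 232 CPM in ART-Normal 1 to 4 and at 292 and 245 in Control-AI 2 and 4. In muscle it was at 48.7, 42.9, 85.1 and 62.6 CPM in ART-Normal 1 to 4 and at 57.1 and 40.2 in Control-AI 2 and 4. The lowest liver was above the highest muscle, and muscle still held a clear level in all 6 fetuses. The log2 fold change of liver over muscle was 2.11 (SE 0.17, adjusted p = 3.71e-08), a 4.31-fold difference. LRFN4, which overlaps PC on the other strand, was at 0.553 to 5.94 CPM in liver and at most 6.93 in muscle.

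Of the phosphoenolpyruvate carboxykinases, the mitochondrial form was the one counted at a high level in liver. PCK2, the mitochondrial enzyme (ID 282856, chr10:21036261-21044563, minus strand), was at 131, 155, 201 and 185 CPM in ART-Normal livers and at 168 and 170 in Control-AI livers. In muscle it was at 2.89, 3.05, 2.30 and 4.61 CPM in ART-Normal and at 4.15 and 3.11 in Control-AI. It differed between the tissues by a log2 fold change of 5.66 (SE 0.17, adjusted p = 1.60e-12), with 523rd place from the top of all genes tested. PCK1, the cytosolic enzyme (ID 282855, chr13:58609020-58615146, minus strand), was low in every library.

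PCK1 was at 2.40, 1.89, 3.32 and 3.25 CPM in ART-Normal livers and at 2.1 and 1.93 in Control-AI livers, from 29 to 96 counts each. In muscle it was at 0.634, 1.55, 0.781 and 0.595 CPM in ART-Normal and at 1.21 and 0.364 in Control-AI, from 9 to 28 counts. The lowest liver still exceeded the highest muscle. Without the filter the log2 fold change was 1.54 (SE 0.36, adjusted p = 0.00124). Over all libraries the level was 3.10-fold higher in liver, with an exact 95% interval of 2.48 to 3.9 that covers counting error only. Every fetus had more PCK1 in its liver than in its muscle, by a log2 ratio between 0.27 in ART-Normal 2 and 2.40 in ART-Normal 4.

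In read counts PCK2 exceeded PCK1 in all 12 libraries, and the margin was wider in liver. The log2 ratio of PCK1 to PCK2 counts was -6.10 ± 0.30 in liver and -2.06 ± 0.80 in muscle (SD, n = 6 libraries each). Per kilobase of gene span, PCK1 made up 1.51 to 2.42% of the pair in liver and 13.7 to 40.8% in muscle. The muscle share rests on a PCK2 level of only 2.30 to 4.61 CPM. The span counts introns as well as exons, so shares per kilobase describe these counts and are no ratio of transcripts.

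FBP1, the liver fructose-1,6-bisphosphatase, was counted in every liver and almost absent from muscle. The gene (ID 513483) lies at chr8:81068093-81098919 on the minus strand, and FBP2 (ID 514066) lies beside it at chr8:81003308-81046041 on the same strand. A gap of 22051 bases separates them, in which 0 listed genes start. In liver FBP1 was at 42.7, 53.8, 64.1 and 63.5 CPM in ART-Normal and at 45.9 and 50.8 in Control-AI. In muscle it had 0, 1, 1 and 3 counts in ART-Normal 1 to 4 and 1 and 0 in Control-AI 2 and 4. Liver was higher by a log2 fold change of 9.96 (SE 0.30, adjusted p = 1.09e-12), with 191st place from the top. GYS2 differed by a similar amount, and which of these genes ranked higher changed with the fetuses used: FBP1 was at 9.81 and GYS2 at 10.32 with ART-Normal alone. Because the fitted value depends on how so few reads are handled, the pooled level is the plainer measure: 8617 liver counts against 6 in muscle gave a 1131-fold difference, with an exact 95% counting interval of 520 to 3084.

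FBP2, known as the muscle form, was at the limit of detection in both tissues. Liver libraries held 2, 0, 3 and 3 FBP2 counts in ART-Normal 1 to 4 and 2 and 8 in Control-AI 2 and 4. Muscle libraries held 3, 1, 0 and 1 in ART-Normal 1 to 4 and 1 and 1 in Control-AI 2 and 4. A count of 0 allows up to 3 counts, so 8 counts in the Control-AI 4 liver (0.344 CPM) was the only value clearly above that limit. Liver exceeded muscle in 4 of 6 fetuses, the pooled ratio was 2.03 with a counting interval of 0.81 to 5.74, and the log2 fold change without the filter was 0.96 (SE 0.90, adjusted p = 0.354). A tissue difference in FBP2 was not detectable at this depth. Neither fructose-1,6-bisphosphatase gene thus had more than 3 counts in any fetal muscle library.

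G6PC, whose product releases free glucose, was confined almost wholly to liver but was uneven there. The gene (ID 538710) lies at chr19:42949589-42962432 on the plus strand. Liver levels were 1.34, 2.34, 35.7 and 19.1 CPM in ART-Normal 1 to 4 and 1.38 and 1.85 in Control-AI 2 and 4. These rest on 29, 105, 883 and 563 counts in ART-Normal and on 19 and 43 in Control-AI. ART-Normal 3 and 4 stood far above the other livers, whose values lay close together. Muscle libraries held 0, 1, 3 and 1 counts in ART-Normal and 0 and 0 in Control-AI.

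In all 6 fetuses liver G6PC exceeded muscle G6PC. The pooled level was 259-fold higher in liver (1642 against 5 counts, exact 95% counting interval 111 to 798), and that interval does not cover the spread between fetuses. Without the filter the log2 fold change was 7.85 (SE 1.02, adjusted p = 5.51e-06). The SE was the largest of any of the enzymes that differed between the tissues.

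The glycogen synthases divided by tissue, with GYS2 almost absent from muscle and GYS1 lower but present in liver. GYS2, the liver form (ID 537451, chr5:88602375-88658597, plus strand), was at 104, 89.4, 128 and 114 CPM in ART-Normal livers and at 76.1 and 85.8 in Control-AI livers. Muscle held 3, 1, 2 and 1 GYS2 counts in ART-Normal and 1 and 5 in Control-AI. Liver exceeded muscle by a log2 fold change of 9.83 (SE 0.21, adjusted p = 1.28e-13), with 197th place from the top, and the pooled level was 961-fold higher in liver (counting interval 562 to 1806).

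GYS1, the form of muscle and other tissues (ID 786335, chr18:55541697-55558358, minus strand), was at 47.6, 51.8, 57.2 and 68.3 CPM in ART-Normal muscles and at 72.9 and 52.5 in Control-AI muscles. In liver it was at 9.59, 10.3, 9.83 and 9.68 CPM in ART-Normal and at 15.1 and 12.8 in Control-AI. The difference was one of degree, with a log2 fold change of -2.40 (SE 0.12, adjusted p = 2.27e-10), or 5.29-fold higher in muscle. GYS1 thus stayed above the 5 CPM of the filter in all 12 libraries, while GYS2 stayed below it in every muscle. The log2 ratio of GYS2 to GYS1 counts was 3.15 ± 0.53 in liver and -8.97 ± 0.70 in muscle, and the difference between the tissues was 12.1 ± 0.96 (SD, n = 6 fetuses).

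The glycogen phosphorylases divided in the same manner, with the residual level on the liver form instead. PYGL, the liver form (ID 505472, chr10:43742884-43797472, minus strand), was at 159, 153, 165 and 161 CPM in ART-Normal livers and at 166 and 152 in Control-AI livers. In muscle it was at 17.4, 17.4, 16.9 and 18.5 CPM in ART-Normal and at 20.2 and 15.4 in Control-AI. The tissues differed by a log2 fold change of 3.17 (SE 0.08, adjusted p = 3.28e-13), a 9.0-fold difference with the smallest SE of the 7 enzymes. From fetus to fetus the log2 ratio of liver over muscle stayed between 3.03 and 3.30.

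ABHD12B overlaps PYGL on the opposite strand and was at 39.9 CPM in the Control-AI 2 liver but at 0.092 to 0.809 CPM in the other livers. LOC107132849, also opposite PYGL, was at 4.21 to 11.3 CPM in liver, highest in Control-AI 2, and at most 1.51 in muscle. How strand was handled in counting is not given in the sources used here. The part of the reads at these overlaps that belongs to PYGL was therefore not tested. Without Control-AI 2 the log2 fold change of PYGL between the tissues was 3.18.

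PYGM, the muscle form (ID 327664, chr29:42985604-42997404, minus strand), was at 118, 161, 202 and 207 CPM in ART-Normal muscles and at 186 and 144 in Control-AI muscles. In liver it was at 1.01, 0.267, 1.5 and 0.813 CPM in ART-Normal and at 0.652 and 0.129 in Control-AI, from 3 to 37 counts. The groups were far apart, with a log2 fold change of -7.95 (SE 0.36, adjusted p = 6.67e-11) and 199th place from the bottom of all genes tested. The pooled level was 246-fold higher in muscle (counting interval 204 to 301). Muscle marker sums in the same livers were 1.89, 4.23, 5.22 and 4.30 CPM in ART-Normal and 25.8 and 4.21 in Control-AI. The highest liver PYGM was in ART-Normal 3 and the highest muscle marker sum in Control-AI 2.

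**Figure D2:**
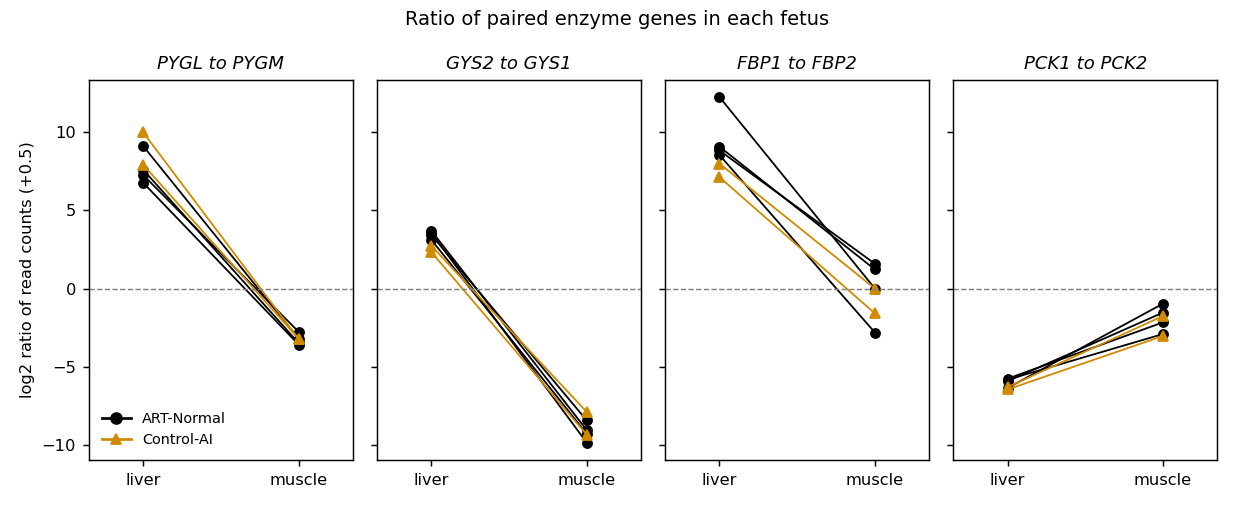
The log2 ratio of read counts, with 0.5 added to each count, of 4 pairs of enzyme genes in the liver and muscle of each fetus, with a line joining the tissues of 1 fetus (ART-Normal black, Control-AI orange). The PYGL to PYGM and GYS2 to GYS1 ratios cross 0 in all 6 fetuses, FBP1 to FBP2 falls to between -2.81 and 1.58 in muscle, and PCK1 to PCK2 stays below 0 in both tissues.

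Set side by side within each fetus, the pairs showed which tissue changed its main form. The log2 ratio of PYGL to PYGM counts was 8.10 ± 1.21 in liver and -3.24 ± 0.28 in muscle, so the main form of this pair switched in all 6 fetuses. Per kilobase of gene span PYGL made up 96.0 to 99.6% of the pair in liver and 1.77 to 3.08% in muscle. PYGB is outside the pair, so these are not shares of all phosphorylase. GYS2 made up 60.0 to 79.4% of the synthase pair in liver and at most 0.114% in muscle. The FBP1 to FBP2 ratio was 8.96 ± 1.75 in liver and -0.26 ± 1.67 in muscle, where neither gene was expressed above a few counts. This pair therefore went from 1 form in liver to neither form in muscle.

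Between genes, levels were ordered per kilobase of gene span, in CPM. In liver PCK2 came first at 20.3 ± 2.91, followed by PYGL at 2.91 ± 0.10, PC at 2.36 ± 0.28, GYS2 at 1.77 ± 0.35 and FBP1 at 1.73 ± 0.29 (SD, n = 6). From PYGL to FBP1 the ranges of neighbouring genes overlapped. Within libraries, PYGL was above PC and PC above GYS2 in all 6 livers, while the order of GYS2 and FBP1 varied. G6PC followed at 0.800 ± 1.11, GYS1 at 0.673 ± 0.14 and PCK1 at 0.405 ± 0.11, and G6PC could not be ordered against its neighbours because of its spread. GYS1 was above PCK1 in all 6 livers. PYGM and FBP2 were last at 0.062 and 0.0031.

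In muscle PYGM was first at 14.4 ± 2.95 and GYS1 next at 3.50 ± 0.60. PC at 0.546 ± 0.16, PCK2 at 0.404 ± 0.10 and PYGL at 0.323 ± 0.03 came after them, each within the spread of its neighbour. Within libraries PC was above PCK2 in every muscle, while the order of PCK2 and PYGL varied. PCK1 was at 0.140 ± 0.07. The other 4 genes (G6PC, FBP1, FBP2 and GYS2) were at or under 0.0031 in muscle. The order holds for gene spans only, since a long gene with large introns is placed too low.

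The enzymes also differed in how much they varied between fetuses of the same tissue. Among the 13868 genes with at least 10 counts in all 6 livers, G6PC had the 26th largest SD of log2 CPM, at 1.90, and its highest liver was 26.7 times its lowest. PYGL was at the other end, with an SD of 0.052, 13827th of 13868, and a highest level only 1.09 times its lowest. That narrow range holds after TMM scaling. With library size alone PYGL ran from 124 CPM in Control-AI 2 to 163 in ART-Normal 4. The median gene had an SD of 0.22 and a ratio of 1.54. PCK1 (0.30), GYS2 (0.28), GYS1 (0.26), FBP1 (0.24), PCK2 (0.21) and PC (0.17) lay near the median. After TMM scaling the gene of the last step of glucose release was thus among the most variable in liver, and that of the liver phosphorylase among the least.

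The highest 2 liver values of G6PC, PCK1, PCK2, FBP1 and GYS2 were all in ART-Normal 3 and 4. SLC37A4, the transporter that carries glucose 6-phosphate to G6PC, was at 12.7, 12.9, 18 and 20.3 CPM in ART-Normal 1 to 4 and at 16.7 and 15.4 in Control-AI 2 and 4, with its 2 highest values in the same livers. PC, GYS1 and PYGL did not follow this order: after TMM scaling PC and GYS1 were highest in Control-AI 2, and PYGL hardly varied. Hepatocyte marker sums were 42534 and 31744 CPM in ART-Normal 3 and 4, inside the range of the other livers. The adipose marker sum was highest in the same livers, at 122 and 120 CPM against at most 79.4 in the others. LPL made up most of it, at 107 and 101 CPM in ART-Normal 3 and 4. PLIN1 was lowest in ART-Normal 3 (2.26 CPM) and was at 2.68 in ART-Normal 4. CIDEC in ART-Normal 3 (13.5 CPM) was below both controls (14.5 and 16.0), but in ART-Normal 4 (16.6) it was the highest of all 6 livers. ADIPOQ was at most 0.172 CPM and FABP4 at 0 in all 6 livers. The part of these markers in the order of the livers was not tested. This order was noticed after the values were seen and is a description of 6 libraries.

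**Figure D3:**
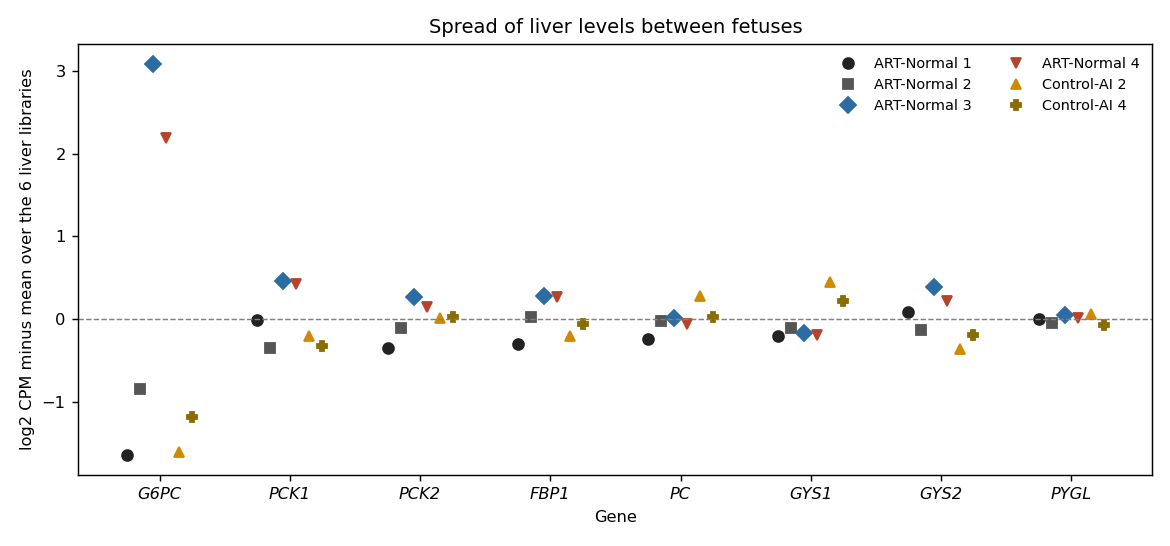
Liver level of 8 enzymes in each fetus, as log2 CPM after TMM scaling minus the mean over the 6 liver libraries. G6PC has an SD of 1.90 and its highest values in ART-Normal 3 and 4, while PYGL, with an SD of 0.05, is almost level.

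In muscle PC varied most of the enzymes with at least 10 counts in all 6 libraries. Among the 13713 genes at or above that count, the median SD of log2 CPM was 0.21. PC had an SD of 0.40, with 85.1 CPM in ART-Normal 3 and 40.2 in Control-AI 4. PCK2 (0.32), PYGM (0.31) and GYS1 (0.24) lay above the median gene and PYGL (0.13) below it.

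The comparison of conception methods asked whether assisted reproduction, in fetuses grouped as ART-Normal, went with other levels of these enzymes. In liver 0 of 11304 genes passed an adjusted p of 0.05 in the edgeR quasi-likelihood test, a background of 0%, with 948 (8.39%) at an unadjusted p under 0.05. The likelihood ratio test called 89 genes and DESeq2 56, none of them one of the enzymes. Of the 10 enzymes 6 were tested and 0 passed. For a single value, the 15 ways to choose 2 of 6 libraries do not allow an exact permutation p under 0.05.

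The glycogen synthases differed in opposite directions between the liver groups, without passing the adjusted threshold. GYS2 was at 89.4 to 128 CPM in ART-Normal and at 76.1 and 85.8 in Control-AI, which gave a log2 fold change between the conception groups of 0.42, positive when ART-Normal was higher (SE 0.16, adjusted p = 0.550). GYS1 was at 9.59 to 10.3 CPM in ART-Normal and at 15.1 and 12.8 in Control-AI, with -0.50 (SE 0.18, adjusted p = 0.549). In both genes the groups did not overlap, as they did not for PC, which was lower in all 4 ART-Normal livers (-0.23, SE 0.14, adjusted p = 0.609). The gap for PC was narrow, 244 CPM in ART-Normal 3 against 245 in Control-AI 4, and with library size alone the groups overlapped, with ART-Normal 2 (247 CPM) above both controls (218 and 241). Groups that do not overlap were found for 18.4% of all genes tested, 9.19% higher and 9.18% lower in ART-Normal. Both synthases had an unadjusted p under 0.05 (0.0249 for GYS2 and 0.0203 for GYS1).

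The log2 ratio of GYS2 to GYS1 counts does not depend on scaling between libraries. It was 3.44, 3.12, 3.70 and 3.56 in ART-Normal livers 1 to 4 and 2.33 and 2.74 in Control-AI 2 and 4, and the groups did not overlap. GYS2 was higher and GYS1 lower in every ART-Normal liver, so the ratio had to separate the groups and is no separate evidence. The ratio was chosen for description and was not tested. Without Control-AI 2 the log2 fold changes were 0.35 for GYS2, -0.37 for GYS1 and -0.08 for PC. With library size alone they were 0.61, -0.29 and -0.006, while the median of all liver genes moved to 0.21.

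Marker sums in liver also separated the groups. The hepatocyte sum was 27582 to 42534 CPM in ART-Normal and 50262 and 332288 in Control-AI, and the erythroid sum 5244 to 5937 against 6150 and 24419. Among the hepatocyte markers, ALB, AFP, SERPINA1 and AHSG separated the groups, while APOA1, APOB and TTR overlapped. The adipose sum was 78.4 to 122 CPM in ART-Normal and 66.6 and 48.8 in Control-AI, and LPL alone was 65.4 to 107 against 31.2 and 48.0. The neutrophil and macrophage sum, for 6 of 7 genes (CSF3R was not analysed here), overlapped between the groups. Connective tissue and kidney tubule sums overlapped as well. The part of any of these in the enzyme values was not tested.

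For the other 3 enzymes tested in liver the groups overlapped. FBP1 had a log2 fold change of 0.21 (SE 0.18, adjusted p = 0.685), PCK2 of -0.013 (SE 0.17, adjusted p = 0.982) and PYGL of 0.002 (SE 0.12, adjusted p = 0.995). Without the filter G6PC had the largest value, 3.17 (SE 1.16, adjusted p = 0.439), but ART-Normal 1 and Control-AI 2 were at 1.34 and 1.38 CPM, so the groups overlapped. PCK1 (0.45, SE 0.40, adjusted p = 0.753) and PYGM (1.28, SE 0.93, adjusted p = 0.693) overlapped between the groups too. FBP2 held at most 3 counts in each ART-Normal liver and 2 and 8 in Control-AI, or at most 0.121 against 0.145 and 0.344 CPM, and had -1.68 (SE 1.40, adjusted p = 0.737). With 2 controls, an adjusted p above 0.05 does not show that the groups had the same level.

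**Figure D4:**
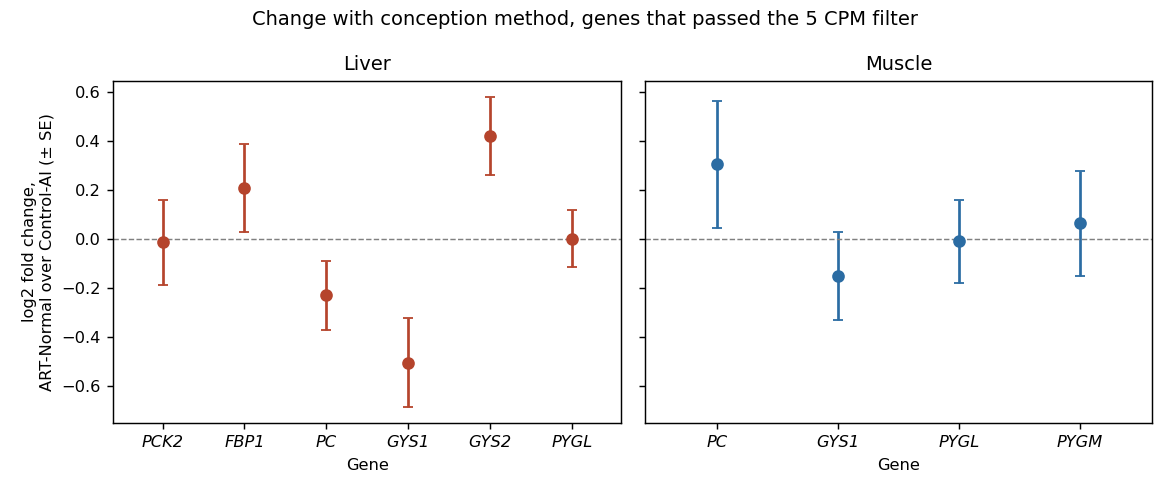
Difference between conception groups, as log2 of ART-Normal relative to Control-AI, for the enzymes that passed the 5 CPM filter, 6 in liver and 4 in muscle, with bars of 1 SE (4 against 2 libraries). GYS2 (0.42) and GYS1 (-0.50) lie farthest from 0 in liver, and none passed the adjusted threshold.

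In muscle 1 of 11695 genes passed the threshold (0.00855%), and it was none of the enzymes, of which 4 were tested and 0 passed. PC had a log2 fold change of 0.31 (SE 0.26, adjusted p = 0.773), GYS1 of -0.15 (SE 0.18, adjusted p = 0.848), PYGM of 0.07 (SE 0.21, adjusted p = 0.955) and PYGL of -0.009 (SE 0.17, adjusted p = 0.995). The groups overlapped in all 4, while 16% of genes tested did not overlap. Connective tissue markers summed to 20306 to 24031 CPM in ART-Normal muscle and to 25686 and 26447 in Control-AI muscle, and their part was not tested. Without the filter, where 0.00549% of 18202 genes passed, PCK1 had 0.25 (SE 0.69, adjusted p = 0.939) and PCK2 -0.15 (SE 0.36, adjusted p = 0.929). G6PC, FBP1, FBP2 and GYS2 had at most 5 counts in any muscle library, and no fold is given for them.

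Whether the change with conception differed between the tissues was tested as an interaction. Of 12923 genes 0 passed in the edgeR quasi-likelihood test, with 711 (5.5%) at an unadjusted p under 0.05, 98 called by the likelihood ratio test and 37 by DESeq2, and none of the 7 enzymes tested had an unadjusted p under 0.05. GYS2 had 1.34 (SE 0.64, adjusted p = 0.932), from 1 to 5 muscle counts per library. PYGM had 1.25 (SE 0.87, adjusted p = 0.958), from 3 to 37 liver counts. Both rested on single controls: without Control-AI 4 they were 0.42 and 0.44, and without Control-AI 2 they were 1.65 and 2.41. FBP1 moved from -0.78 to -3.52 without Control-AI 2 and to 0.64 without Control-AI 4. The values of the other 5 lay between -0.78 (FBP1) and 0.15 (PCK2). The single-tissue differences are therefore not shown to differ between liver and muscle.

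The genes around the enzymes were counted in 5 lists, each to be read against the 81.3% of all genes tested that passed (40.6% higher in liver, 40.7% higher in muscle). In the list of glycogen synthesis and its control, 15 of 17 genes were tested for the tissue difference, of which 3 were higher in liver, 8 higher in muscle and 4 did not pass, with a median log2 fold change of -0.61. PPP1R3A, the glycogen-targeting subunit of protein phosphatase 1 known from striated muscle, was at 160 to 233 CPM in muscle and had no reads in 5 of 6 livers, with 0.290 CPM in Control-AI 2 (log2 fold change -12.69, SE 0.37). The glycogenins GYG2 (-1.96) and GYG1 (-1.66), which prime glycogen chains, and the glycogen phosphatase laforin, EPM2A (-1.09), were also higher in muscle. PPP1R3D (1.09), PPP1R3E (1.07) and GSK3A (0.19) were higher in liver. PPP1R3B, a targeting subunit known for its role in liver, did not pass (0.15, adjusted p = 0.313), with 41.5 to 70.1 CPM in liver and 43.2 to 61.7 in muscle. It is named here after its value was seen.

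In the list of glycogen breakdown all 8 genes were tested, with 7 higher in muscle and 1 in liver, at a median of -0.88, beside 40.7% and 40.6% of all genes. The phosphorylase kinase subunits PHKG1 (-2.30), PHKA1 (-1.91) and PHKB (-1.02), which pass the signal that activates phosphorylase, were among those higher in muscle. The gene higher in liver was GAA (1.28), the acid glucosidase of the lysosome, which cuts glycogen without a phosphorylase.

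In the list of the glucose 6-phosphate system and competing steps, 14 of 17 genes were tested, of which 8 were higher in liver, 4 higher in muscle and 2 did not pass, with a median of 0.70. Forms known from liver led one side: PKLR, a pyruvate kinase (10.60), PFKFB1, which sets the level of fructose 2,6-bisphosphate (3.78), the hexokinase HK1 (2.27) and PFKL, a phosphofructokinase (2.01). The muscle phosphofructokinase PFKM (-3.04), HK2 (-2.40), PKM (-2.32) and PFKFB4 (-1.17) led the other. G6PC3, the widely expressed glucose-6-phosphatase, was at 54.9 to 69.8 CPM in liver and at 14.3 to 20.7 in muscle (1.83, SE 0.10). In every liver library it was counted above G6PC in CPM, a comparison not corrected for gene length. SLC37A4 did not pass (-0.21, adjusted p = 0.204), so the transporter was counted in both tissues although G6PC was almost absent from muscle. G6PC2 had no counts in any library. G6PC3, SLC37A4 and G6PC2 are named for their relation to G6PC, after their values were seen.

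In the list of precursor supply, 17 of 18 genes were tested, of which 12 were higher in liver, 4 higher in muscle and 1 did not pass, with a median of 1.47, beside 40.6% of all genes higher in liver. Among those higher in liver were TAT, a tyrosine aminotransferase (9.41), MCEE, methylmalonyl-CoA epimerase (3.00), and GPT, alanine aminotransferase (2.94). MCEE belongs to the propionate route by which ruminant liver makes glucose, as do MUT (2.00), PCCB (1.47) and PCCA (1.08). These 3 are named beyond the rule for named genes, and all passed, as did 81.3% of all genes. LDHA (-0.70), LDHB (-0.62), GK (-0.50) and MDH1 (-0.26) were higher in muscle.

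In the list of hormone receptors and transcriptional control, 13 of 14 genes were tested, of which 9 were higher in liver, 3 higher in muscle and 1 did not pass, with a median of 0.66. HNF4A (10.33), the glucagon receptor GCGR (9.14) and CEBPA (3.78) were among those higher in liver. The glucocorticoid receptor NR3C1 (-1.39), SIRT1 (-0.74) and FOXO1 (-0.65) were higher in muscle. Of these 5 lists, 0 genes passed the adjusted threshold for conception in either tissue.

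**Figure D5:**
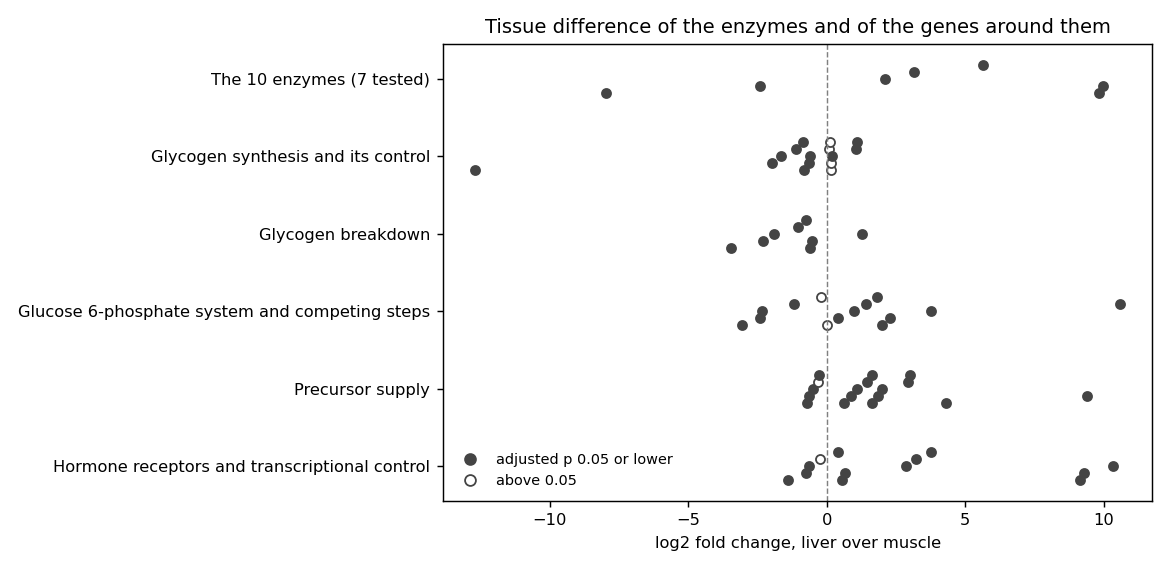
The log2 fold change of liver over muscle of each gene tested, for the 10 enzymes (7 tested) and the 5 lists around them, with filled points at an adjusted p of 0.05 or lower and open points above it. Medians run from -0.88 for glycogen breakdown to 1.47 for precursor supply, against 0.006 for all genes tested.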

How the data were processed

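RNA-seq of fetal liver and skeletal muscle was used from 12 libraries; kidney libraries in the labels were not analysed here. Per the labels, mRNA was enriched with oligo(dT) beads and sequenced as strand-specific paired-end reads of 150 bp. The submitters' processing notes name FastQC 0.11.7, HISAT2 2.1.0, Cufflinks, SAMtools, featureCounts, edgeR 3.24.3 and the build ARS-UCD1.2, with no settings. The authors deposited raw read counts per gene, without normalization. For all 21048 genes the listed length is end minus start plus 1, introns included. The tables hold 14 other count columns, which were left out (7 in each tissue). Result tables of the authors' own comparisons give a log2 fold change, log2 CPM, likelihood ratio, p-value and FDR per gene, and none of these was used. Exon lengths and sequences were not used here.

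From the deposited counts, edgeR 4.0.16 (limma 3.58.1, R 4.3.3) gave TMM factors and two-sided quasi-likelihood tests on genes that reached 5 CPM in every library of one or more groups, adjusted by Benjamini-Hochberg over all genes tested, with a threshold of 0.05. The 4 comparisons were tissue with conception group as covariate, conception within each tissue, and their interaction. The SE is the size of the log2 fold change divided by the square root of F. Ratios of counts used a pseudocount of 0.5. Counting intervals are exact at 95% and cover counting error only; PCR copies are not separate molecules. Replicates are different fetuses. By the labels each fetus gave both tissues, and its 2 libraries deviated from their group means with a correlation across genes of 0.21, 0.04, 0.08 and 0.31 in ART-Normal 1 to 4 and 0.36 in the controls. Alternatives were RLE, upper quartile and library size scaling, edgeR's likelihood ratio test, DESeq2 1.42.0 (Wald test), no filter beyond 1 count, at least 10 counts in every library, ART-Normal 1 to 3, ART-Normal alone for tissue, a replicate block, leaving out each fetus, and a pseudocount of 1. The fits were tested on simulated data. Python 3.11.15 with pandas 2.3.3, SciPy 1.17.1 and Matplotlib 3.10.9 made tables and plots.

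The enzymes and lists were chosen with earlier results of these data known. All 10 enzymes are described in each tissue, with a fold in a comparison only where counts allow one; of each list, up to 4 genes with the largest and 4 with the smallest tissue difference past the threshold are named, apart from some that are not reported here.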

Additional observations from a re-analysis of the deposited data

How the results depend on the processing

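All 7 tissue differences of the enzymes kept their direction and stayed past the threshold under every alternative that gave a value (FBP1, GYS2 and PYGM could not be fitted with at least 10 counts in every library), and the count of genes past it, 10507, ranged from 9788 to 13079; with the replicate block by fetus it was 10937. G6PC, PCK1 and FBP2 have a tissue value only without the filter. The isoform ratios between tissues ranged over 11.0 to 11.6 (PYGL to PYGM), 11.8 to 12.4 (GYS2 to GYS1), 8.62 to 9.62 (FBP1 to FBP2) and -4.27 to -3.77 (PCK1 to PCK2), leaving out each fetus or with a pseudocount of 1. No enzyme passed the threshold for conception or for the interaction under any alternative, while the count over all genes depended on the setting. In liver it was 6 with library size alone, 89 with the likelihood ratio test, 56 with DESeq2, 2 with ART-Normal 1 to 3, 6 with the replicate block and 0 to 830 leaving out each fetus, 830 without Control-AI 4. In muscle it was 120 with the likelihood ratio test, 106 with DESeq2, 0 with ART-Normal 1 to 3, 90 with the replicate block and 0 to 1327 leaving out each fetus, 1327 without Control-AI 4, 5 without Control-AI 2, 3 without ART-Normal 1 and 2 without ART-Normal 2. The interaction count was 98 with the likelihood ratio test, 37 with DESeq2, 0 with the replicate block and 0 to 232 leaving out each fetus, 232 without Control-AI 4. Leaving out a control leaves 1, which is assumed to vary like the others; the causes of these shifts were not tested. In the conception fits within a tissue the replicate block is the number in the labels. That number marks different fetuses in the 2 conception groups, so the block pairs nothing there. In the interaction fit, as in the tissue fit, the block is the fetus and pairs its liver with its muscle. Values near 0 changed sign for conception: PCK2 in liver (0.19 with library size alone, 0.0089 without the filter, -0.11 to 0.088 leaving out each fetus), PYGL in liver (-0.0040 with RLE, -0.039 with upper quartile, -0.0039 with DESeq2, -0.0037 with ART-Normal 1 to 3, -0.018 with the replicate block, -0.063 to 0.081 leaving out each fetus), GYS1 in muscle (-0.36 to 0.088), PYGL in muscle (0.0048 without the filter, 0.031 with the replicate block, -0.18 to 0.18) and PYGM in muscle (-0.034 with ART-Normal 1 to 3, -0.094 to 0.25). So did the interaction leaving out each fetus in PCK2 (-0.084 to 0.37), FBP1 (-3.52 to 0.64) and PYGL (-0.083 to 0.14). Depth limits G6PC and FBP1 in muscle and FBP2 in both tissues.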
